A study of Mus musculus with 8 samples.

Results

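Matrix metalloproteinases (MMPs), their relatives of the ADAM and ADAMTS families, and the tissue inhibitors of metalloproteinases (TIMPs) were followed in RNA-seq of the mouse distal colon. Members were taken by gene symbol, as every gene named Mmp, Adam, Adamts or Timp with a number, which gave 56 of the 15859 genes in the count table. They comprised 18 MMPs, 16 ADAMs, 18 ADAMTS genes and 4 TIMPs. Of these, 50 had a mean normalized count above 5 and were tested: 17 MMPs, 13 ADAMs, 16 ADAMTS genes and all 4 TIMPs.

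Colons came from 8 male mice, 2 in each of 4 groups. *Hsf1* null mice lack heat shock factor 1 (HSF1), a transcription factor of the stress response, in every cell of the body, and their WT littermates shared the mixed BALB/c and 129SvEV background. The day 0 mice were not treated, and the day 15 mice had received azoxymethane (AOM, a carcinogen, 10 mg/kg into the peritoneum at 8 weeks of age) and, from day 7, dextran sodium sulfate (DSS, which injures the colon epithelium) at 1.5% in the drinking water for 5 days. The labels give an age of 10 weeks for mice of all groups, and place the end of the treated groups directly after DSS, whereas the sample titles place it at day 15. The null allele acts in all cells, so the groups do not separate fibroblasts from epithelium or leukocytes.

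MMPs are zinc proteases that cut extracellular matrix (ECM) proteins such as collagens, laminins and proteoglycans, and most are secreted as inactive precursors. ADAMs are membrane proteins, many of which release growth factors, cytokines and adhesion molecules from the cell surface, and ADAMTS enzymes are secreted proteases that process procollagens and cut proteoglycans. TIMPs bind the active site of these enzymes and block it. In an inflamed colon, stromal cells, macrophages, neutrophils and regenerating epithelium are all known sources of MMPs.

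A cluster on chromosome 9 holds 6 of the measured MMP genes: *Mmp13* (7272514 to 7283331), *Mmp12* (7344381 to 7369499), *Mmp3* (7445822 to 7455975), *Mmp10* (7502352 to 7510240), *Mmp8* (7558456 to 7568485) and *Mmp7* (7692090 to 7699585), all on the plus strand of GRCm38. The 120 bases before the annotated RefSeq start of each (GRCm38.p6) are shown because 5 of the 9 members that rose in WT mice lie in this cluster. Capitals mark 2 motifs found by letter match alone, the AP-1 motif TGANTCA and the TATA motif TATAAA (or its reverse complement TTTATA). In *Mmp10* they also mark a match to GAANNTTC, a pair of the units that HSF1 binds.
Mmp13: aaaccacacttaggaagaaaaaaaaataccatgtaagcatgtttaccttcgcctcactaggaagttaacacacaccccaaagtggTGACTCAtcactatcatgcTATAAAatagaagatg
Mmp3: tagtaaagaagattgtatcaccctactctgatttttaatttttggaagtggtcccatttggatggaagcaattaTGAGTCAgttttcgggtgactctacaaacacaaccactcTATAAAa
Mmp10: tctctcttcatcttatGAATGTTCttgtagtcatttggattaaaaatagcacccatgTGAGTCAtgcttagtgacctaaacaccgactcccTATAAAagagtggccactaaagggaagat
Mmp8: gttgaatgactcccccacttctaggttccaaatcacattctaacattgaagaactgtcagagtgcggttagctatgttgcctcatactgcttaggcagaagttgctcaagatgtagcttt
Mmp7: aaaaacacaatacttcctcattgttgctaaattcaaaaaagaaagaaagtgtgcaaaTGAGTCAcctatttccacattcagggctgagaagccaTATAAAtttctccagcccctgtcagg
Mmp12: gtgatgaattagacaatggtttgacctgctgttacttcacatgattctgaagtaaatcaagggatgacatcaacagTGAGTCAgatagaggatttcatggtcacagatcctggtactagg

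In these windows, *Mmp13*, *Mmp3*, *Mmp10* and *Mmp7* each held both the AP-1 and the TATA motif, *Mmp12* (1 of its 2 annotated starts) held the AP-1 motif alone, and *Mmp8* held neither. For *Mmp12* the window of the second start (7347254 to 7347373) is shown, and that of the first (7344277 to 7344396) held none of these motifs. *Mmp7* also has 2 annotated starts, and the first is shown. Over the 250 bases before a start, 6 of 39 member promoters (15.4%) held the AP-1 motif against 6.75% of all 32851 promoters. The TATA motif was in 12.8% of member promoters and 12.4% of all, and GAANNTTC in 5.13% and 6.69%. These promoters belong to 34 of the 56 members, the motifs were searched on both strands, and *Mmp12* shows that the AP-1 letters were also present at a member that was not called.

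Library totals were between 2553348 and 12440257 counts, and the smallest were those of the replicate 2 mice of both day 0 groups. The members took up 0.105% to 0.246% of all counts, with the 2 highest shares in the WT day 15 mice (0.225% and 0.246%). *Hsf1* itself was at 40.5 and 36.5 CPM (counts scaled to a common library size) in the WT day 0 mice, 14.0 and 11.9 in the *Hsf1* null day 0 mice, 50.5 and 45.9 in the WT day 15 mice and 13.5 and 9.09 in the *Hsf1* null day 15 mice. All 4 null libraries were below all 4 WT libraries, with reads left from the disrupted gene. All 9 colon epithelium markers were measured in every library (summed level 10155 to 22826 CPM). CPM values are given here in the order replicate 1, replicate 2, and differences as log2 fold changes with a standard error (SE) from edgeR's quasi-likelihood test. A gene was called when its Benjamini-Hochberg adjusted p over all genes tested was under 0.05 and its absolute log2 fold change above 1. The labels do not say whether mice of a group shared a litter or cage, so p-values measure only the spread between these mice.

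Levels per kilobase of exon gave the baseline. In the untreated *Hsf1* null colon the highest member was *Timp2* (53.3 and 57.7 CPM per exon kilobase), followed by *Mmp15* (21.5 and 34.5), *Timp3* (19.1 and 29.9), *Adam10* (19.7 and 28.7) and *Mmp2* (19.5 and 21.9), and these last 4 overlapped one another. The untreated WT colon had the same genes near the top, apart from *Timp1*, which was at 183 in replicate 1 and 8.49 in replicate 2. At WT day 15, *Mmp2* reached 77.3 to 135 CPM per exon kilobase, and *Mmp3* and *Mmp10*, at most 2.07 and 0.854 in any day 0 mouse, ranged from 7.92 to 119 and from 8.34 to 94.1. At *Hsf1* null day 15 the order again began with *Mmp15* (33.6 to 63.3) and *Timp2* (29.7 to 44.7), which overlapped.

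The first comparison asked how the colon of WT mice changed with AOM-DSS. Between day 0 and day 15, 9 of the 50 tested members rose and none fell: 8 MMPs (*Mmp2*, *Mmp3*, *Mmp7*, *Mmp8*, *Mmp9*, *Mmp10*, *Mmp13* and *Mmp28*) and *Adamts4*. Of all genes tested, 3.47% were called higher and 4.27% lower. No ADAM and no TIMP was called by edgeR. The median log2 fold change was 1.15 for the 17 MMPs, 1.00 for the 16 ADAMTS genes, 0.01 for the 13 ADAMs and -0.13 for the 4 TIMPs, against 0.00 for all genes. Both WT day 15 mice were above both WT day 0 mice for 26 members and below them for 5, where the shares over all genes were 31.0% and 31.5%.

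**Figure D1:**
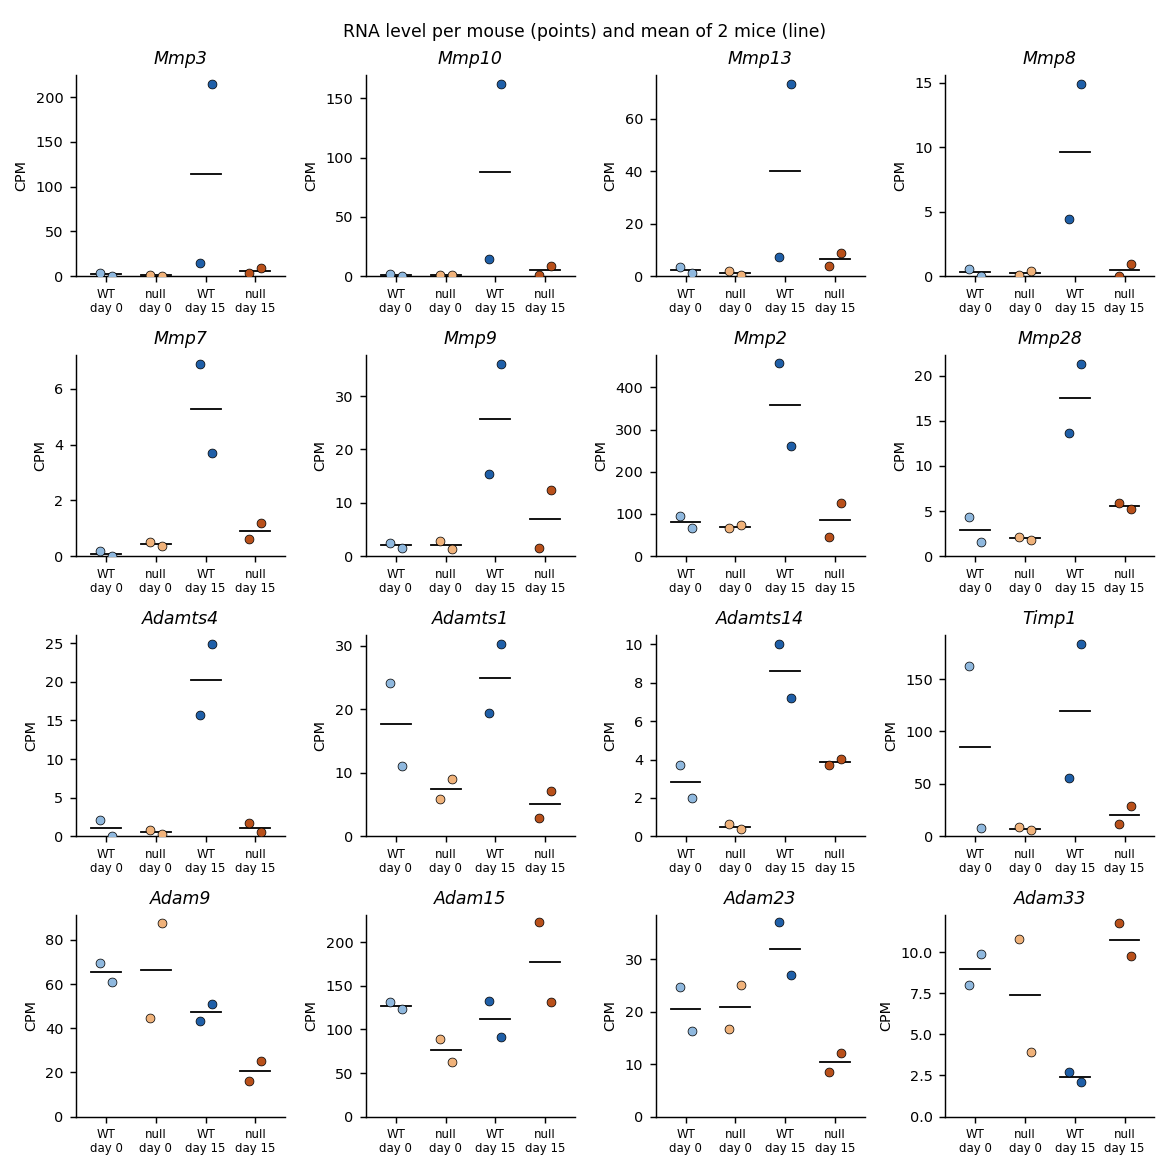
RNA level of 16 members in CPM (vertical axes, linear, from 0) in each of the 8 mice (points) with the mean of 2 mice (lines), by group. *Mmp3*, *Mmp10* and *Mmp13* were far higher in WT day 15 replicate 2 than in replicate 1, whereas *Adamts4*, *Mmp28* and *Mmp7* were high in both WT day 15 mice and *Timp1* was already high in 1 of the 2 WT day 0 mice.

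The stromelysins *Mmp3* and *Mmp10* cut proteoglycans, laminin and non-fibrillar collagens and activate other MMP precursors. They had the largest estimated rises in the fit of all mice. This order rests on replicate 2 of WT day 15, since without it both were below *Mmp7*, which was at least 4.47 in every alternative fit. *Mmp3* was at 3.72 and 0.397 CPM in the WT day 0 mice, 1.48 and 0.359 in the *Hsf1* null day 0 mice, 14.3 and 215 in the WT day 15 mice and 2.95 and 8.96 in the *Hsf1* null day 15 mice. *Mmp10* was at 1.47 and 0.397 CPM at WT day 0, 1.31 and 1.08 at *Hsf1* null day 0, 14.4 and 162 at WT day 15, and 0.776 and 8.69 at *Hsf1* null day 15. For both genes the 2 WT day 15 mice lay above the other 6 mice, but replicate 2 was more than 10 times replicate 1. Their rises in WT mice were 5.43 (SE 1.22, adjusted p = 0.0289) and 6.21 (SE 1.33, adjusted p = 0.0251). Without replicate 2 of WT day 15 they were 2.52 and 3.65 and not called (adjusted p = 0.205 and 0.137). The transcripts of these neighbouring genes share 8.39% (*Mmp3*) and 8.37% (*Mmp10*) of their 50-base words, so a small part of their reads could be assigned to either.

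Of the interstitial collagenases, which cut fibrillar collagen, *Mmp13* was at 3.43 and 1.19 CPM at WT day 0, 1.81 and 0.359 at *Hsf1* null day 0, 7.22 and 73.2 at WT day 15, and 4.03 and 8.96 at *Hsf1* null day 15. It rose by 3.92 in WT mice (SE 1.02, adjusted p = 0.0450), with replicate 1 of WT day 15 inside the range of the null day 15 mice, and was 1.48 (adjusted p = 0.390) without replicate 2 of WT day 15. *Mmp8*, the neutrophil collagenase, was at 0.588 and 0 CPM at WT day 0, 0.0821 and 0.359 at *Hsf1* null day 0, 4.44 and 14.9 at WT day 15, and 0 and 0.936 at *Hsf1* null day 15. It rose by 4.44 in WT mice (SE 1.16, adjusted p = 0.0450).

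The matrilysin *Mmp7*, an epithelial MMP that also activates defensin precursors, was close to 0 at day 0. Its levels were 0.196 and 0 CPM at WT day 0, 0.493 and 0.359 at *Hsf1* null day 0, 6.87 and 3.70 at WT day 15, and 0.620 and 1.20 at *Hsf1* null day 15. The WT day 0 value rests on 2 counts in all against 114 at WT day 15, a ratio of 34.6 with a 95% counting interval of 9.36 to 289, and the rise was called (adjusted p = 0.0166).

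The gelatinases cut denatured and basement membrane collagens. *Mmp2* (chromosome 8, 92827291 to 92853420), a product mainly of stromal cells, was at 95.4 and 67.5 CPM at WT day 0, 65.8 and 73.7 at *Hsf1* null day 0, 457 and 260.4 at WT day 15, and 44.5 and 127 at *Hsf1* null day 15. It rose by 2.13 in WT mice (SE 0.46, adjusted p = 0.0265), and both WT day 15 mice exceeded the other 6. *Mmp9* (chromosome 2, 164940780 to 164955850), known from neutrophils and macrophages, was at 2.45 and 1.59 CPM at WT day 0, 2.87 and 1.44 at *Hsf1* null day 0, 15.5 and 36.0 at WT day 15, and 1.55 and 12.4 at *Hsf1* null day 15. Its rise in WT mice was 3.57 (SE 0.87, adjusted p = 0.0368).

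*Mmp28* (chromosome 11, 83440768 to 83463071), or epilysin, had close values in the 2 WT day 15 mice. Its levels were 4.31 and 1.59 CPM at WT day 0, 2.14 and 1.80 at *Hsf1* null day 0, 13.7 and 21.3 at WT day 15, and 5.89 and 5.22 at *Hsf1* null day 15. It rose by 2.42 in WT mice (SE 0.51, adjusted p = 0.0245). *Adamts4* (chromosome 1, 171250421 to 171260637), an aggrecanase that cuts versican and aggrecan, was at 2.06 and 0 CPM at WT day 0, 0.821 and 0.359 at *Hsf1* null day 0, 15.7 and 24.8 at WT day 15, and 1.71 and 0.535 at *Hsf1* null day 15. It rose by 3.86 in WT mice (SE 0.81, adjusted p = 0.0245), and the levels of both null day 15 mice were in the range of the 4 day 0 mice.

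Among members not called in WT mice, *Mmp14*, the membrane MMP that activates the MMP2 precursor, was at 112 and 48.0 CPM at WT day 0, 43.8 and 43.1 at *Hsf1* null day 0, 165 and 159 at WT day 15, and 90.1 and 101 at *Hsf1* null day 15 (log2 difference in WT mice 1.00, SE 0.34, adjusted p = 0.0899). *Mmp12*, the macrophage metalloelastase, had values of 5.88 and 1.59 CPM at WT day 0, 3.20 and 1.44 at *Hsf1* null day 0, 1.65 and 3.17 at WT day 15, and 0.776 and 3.61 at *Hsf1* null day 15, and all 4 groups overlapped. *Adam8*, a sheddase of myeloid cells, was at 12.1 and 2.78 CPM at WT day 0, 2.71 and 3.59 at *Hsf1* null day 0, 26.3 and 18.5 at WT day 15, and 3.88 and 6.15 at *Hsf1* null day 15 (1.48 in WT mice, SE 0.57, adjusted p = 0.125). Lower values at day 15 were seen for *Adam33* (8.04 and 9.93 CPM against 2.70 and 2.11), a gene of smooth muscle and fibroblasts, with a log2 difference of -1.87 (SE 0.53, adjusted p = 0.0558), and for *Timp4* (20.5 and 15.1 CPM against 6.52 and 1.06), with -2.22 (SE 0.70, adjusted p = 0.0766). DESeq2 called both of these lower in WT mice, and *Mmp14* and *Adamts9* higher, among 13 members called.

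The count of 9 members called in WT mice depended on single mice: it was 0 without replicate 2 of WT day 0 and 0 without replicate 2 of WT day 15, 5 without replicate 1 of WT day 0, and 4 without either *Hsf1* null day 0 mouse, which enters through the shared estimate of the spread. Over the 8 fits without 1 mouse, the calls of *Adamts4* and *Mmp28* were kept in 6, that of *Mmp7* in 5, those of *Mmp3*, *Mmp8*, *Mmp9*, *Mmp10* and *Mmp13* in 3 and that of *Mmp2* in 2, and no call changed direction. A fit of only the 2 WT groups lost *Mmp3*, *Mmp8*, *Mmp10* and *Mmp13* and gained *Adamts2*. *Adam33* was called lower without either *Hsf1* null day 0 mouse (-1.88 in both fits, adjusted p = 0.0455 and 0.0432) and *Timp4* without replicate 1 of WT day 15 (-4.07, adjusted p = 0.0172).

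**Figure D2:**
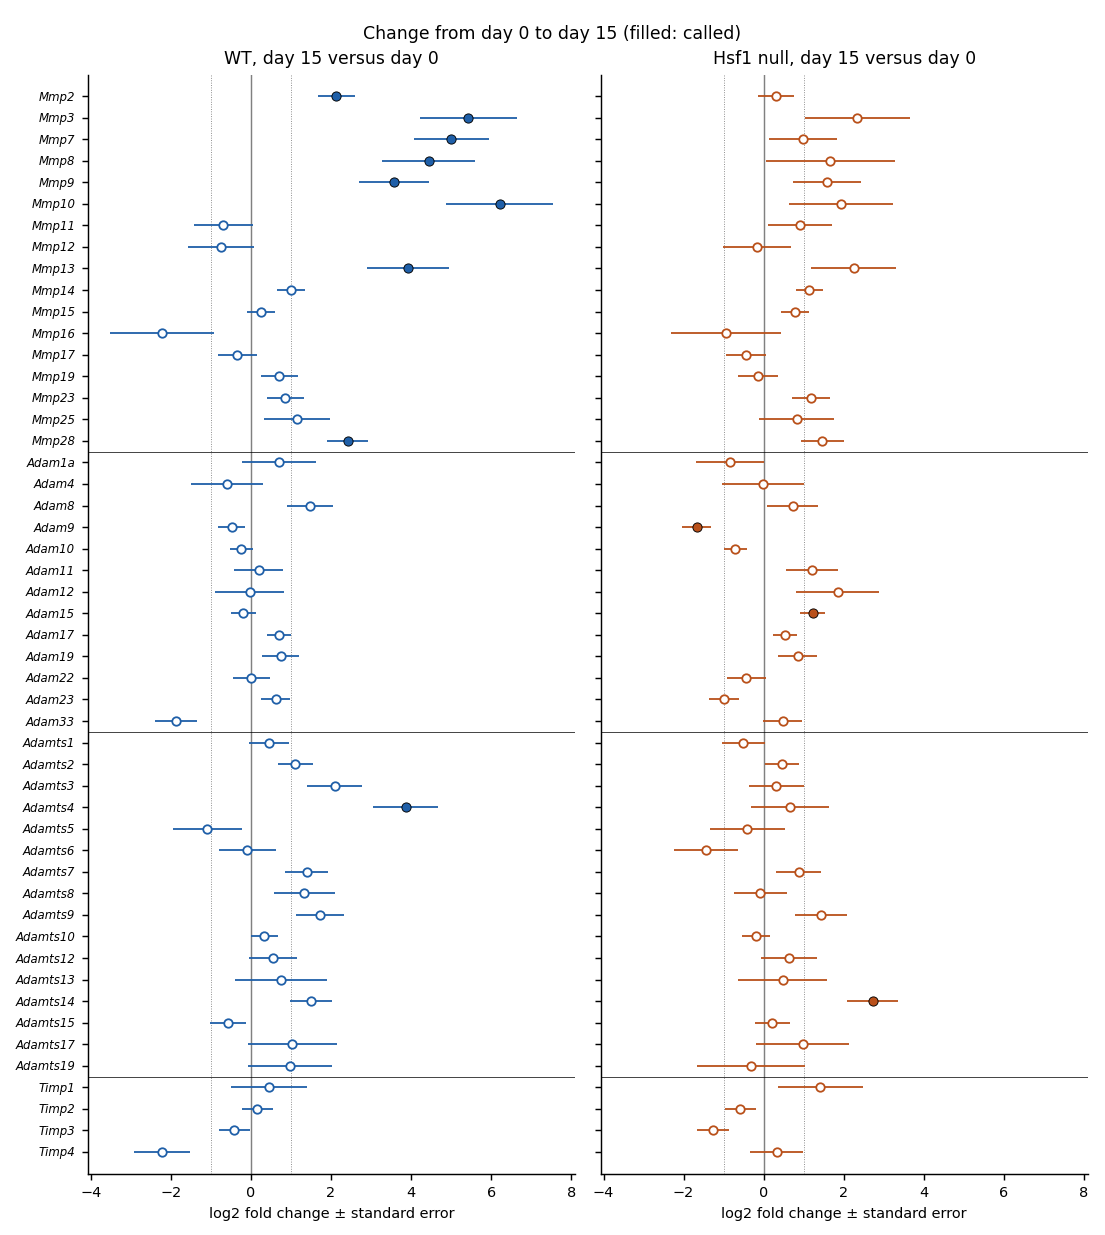
Log2 fold change from day 0 to day 15 (horizontal axis, bars give 1 SE, dotted lines mark -1 and 1) for the 50 tested members in WT (left) and *Hsf1* null mice (right), ordered by family and filled where called. In WT mice 9 members are filled, all on the right, and in *Hsf1* null mice 3, of which *Adam9* lies on the left; the value of *Mmp7* in WT mice rests on 2 counts at day 0.

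The same comparison was made within *Hsf1* null mice, where 3 of the 50 members changed: *Adamts14* and *Adam15* rose and *Adam9* fell. Of all genes tested, 5.30% were called higher and 6.48% lower, so the members' share of 6.0% in both directions together was below that of all genes (11.8%). No MMP and no TIMP was called by edgeR. The median log2 fold change was 0.99 for the MMPs, 0.47 for the ADAMs, 0.39 for the ADAMTS genes and -0.12 for the TIMPs, against 0.05 for all genes. The day 15 mice lay above both day 0 mice for 14 members and below them for 8 (31.0% and 30.3% of all genes).

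*Adamts14* (chromosome 10, 61197112 to 61273438), which removes the amino-terminal propeptide of procollagen, was at 3.72 and 1.99 CPM at WT day 0, 0.657 and 0.359 at *Hsf1* null day 0, 10.0 and 7.18 at WT day 15, and 3.72 and 4.01 at *Hsf1* null day 15. It rose by 2.72 in null mice (SE 0.63, adjusted p = 0.0263), from the lowest level of the 4 groups to about that of replicate 1 of WT day 0. In WT mice its difference was 1.50 (SE 0.52, adjusted p = 0.0978).

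*Adam15* (chromosome 3, 89338542 to 89349996), a disintegrin of epithelial and endothelial cells, was at 132 and 123 CPM at WT day 0, 88.9 and 62.9 at *Hsf1* null day 0, 132 and 90.8 at WT day 15, and 224 and 132 at *Hsf1* null day 15. It rose by 1.22 in null mice (SE 0.32, adjusted p = 0.0370), against a difference of -0.19 (SE 0.31) in WT mice. *Adam9* (chromosome 8, 24949611 to 25016927), a widely expressed sheddase, was at 69.7 and 61.1 CPM at WT day 0, 44.8 and 87.7 at *Hsf1* null day 0, 43.1 and 51.1 at WT day 15, and 16.1 and 25.0 at *Hsf1* null day 15. It fell by 1.67 on the log2 scale in null mice (SE 0.36, adjusted p = 0.0219) and differed by -0.48 (SE 0.34) in WT mice, and the 2 null day 15 mice were the lowest of all 8.

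*Mmp14* was higher in both null day 15 mice than in both null day 0 mice, by 1.14 (SE 0.34, adjusted p = 0.0545). It was called without either WT day 0 mouse (1.13 and 1.14, adjusted p = 0.0313 and 0.0328) and, with *Timp3*, by DESeq2. The 8 MMPs called in WT mice were not called in null mice. Their log2 differences there were 2.34 for *Mmp3* (SE 1.31), 1.94 for *Mmp10* (SE 1.30), 2.25 for *Mmp13* (SE 1.06), 1.58 for *Mmp9* (SE 0.84), 1.46 for *Mmp28* (SE 0.54), 0.99 for *Mmp7* (SE 0.85) and 0.30 for *Mmp2* (SE 0.45), with adjusted p between 0.0958 for *Mmp28* and 0.678 for *Mmp2*. *Mmp8* had 1 count in each null day 0 mouse and 0 and 7 counts in the null day 15 mice (adjusted p = 0.510). The 3 calls in null mice also depended on single mice, since the count was 0 without replicate 2 of *Hsf1* null day 0 and 0 without replicate 1 of *Hsf1* null day 15, and 1 without either of the other two null mice.

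The effect of genotype on the change with treatment was tested as the WT change minus the null change. No member was called, against 0.00696% of all genes tested. An unadjusted p under 0.05 was reached by 9 members and by 1239 of all 14371 genes, the smallest adjusted p was 0.430, and DESeq2 called none. The estimates were 4.28 for *Mmp10* (SE 1.88, adjusted p = 0.574), 3.20 for *Adamts4* (SE 1.27, adjusted p = 0.537), 1.83 for *Mmp2* (SE 0.64, adjusted p = 0.477), -2.34 for *Adam33* (SE 0.72, adjusted p = 0.430) and -1.41 for *Adam15* (SE 0.45, adjusted p = 0.447). A call in one genotype and not in the other was therefore not shown to be a difference between them for any member.

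The genotypes were next compared on each day. At day 0 no member was called, as of all genes tested (0% called in either direction). For the members the smallest adjusted p was 0.775, 10 had an unadjusted p under 0.05 (904 of all 14371 genes), and DESeq2 called none. The WT mice were both above the null mice for 12 members and both below for 3 (18.4% and 18.7% of all genes). The largest estimate was that of *Timp1*, 3.50 (SE 1.10), followed by *Adam12*, an ADAM of activated stromal cells, at 3.30 (SE 1.04), and *Adamts14* at 2.37 (SE 0.64).

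The first 2 of these rested on replicate 1 of WT day 0. *Timp1* (chromosome X, 20870166 to 20874735) was at 163 and 7.54 CPM at WT day 0, 8.95 and 5.75 at *Hsf1* null day 0, 55.6 and 183 at WT day 15, and 11.9 and 28.8 at *Hsf1* null day 15. *Adam12* was at 27.3 and 1.99 CPM at WT day 0, 1.81 and 1.08 at *Hsf1* null day 0, 20.3 and 10.2 at WT day 15, and 2.33 and 8.96 at *Hsf1* null day 15. The aggrecanase *Adamts5* was at 18.4 and 0.794 CPM in the same 2 WT day 0 mice, and between 2.64 and 5.75 in the other 6. That mouse also had the higher summed level of the 10 fibroblast markers (2689 against 1003 CPM). The part of these markers in the *Timp1*, *Adam12* and *Adamts5* values was not tested.

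At day 15 the comparison of the genotypes called 4 of the 50 members, all higher in WT mice: *Adamts4*, *Mmp2*, *Adam23* and *Adamts1*. Of all genes tested, 1.25% were called higher in WT and 1.91% lower. Both WT mice were above both null mice for 28 members and below for 3, against 28.6% and 26.3% of all genes. The median log2 difference was 1.66 for the MMPs, 1.16 for the ADAMTS genes, 0.86 for the TIMPs and 0.34 for the ADAMs, against 0.03 for all genes. This comparison shares the WT day 15 mice with the change in WT mice.

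**Figure D3:**
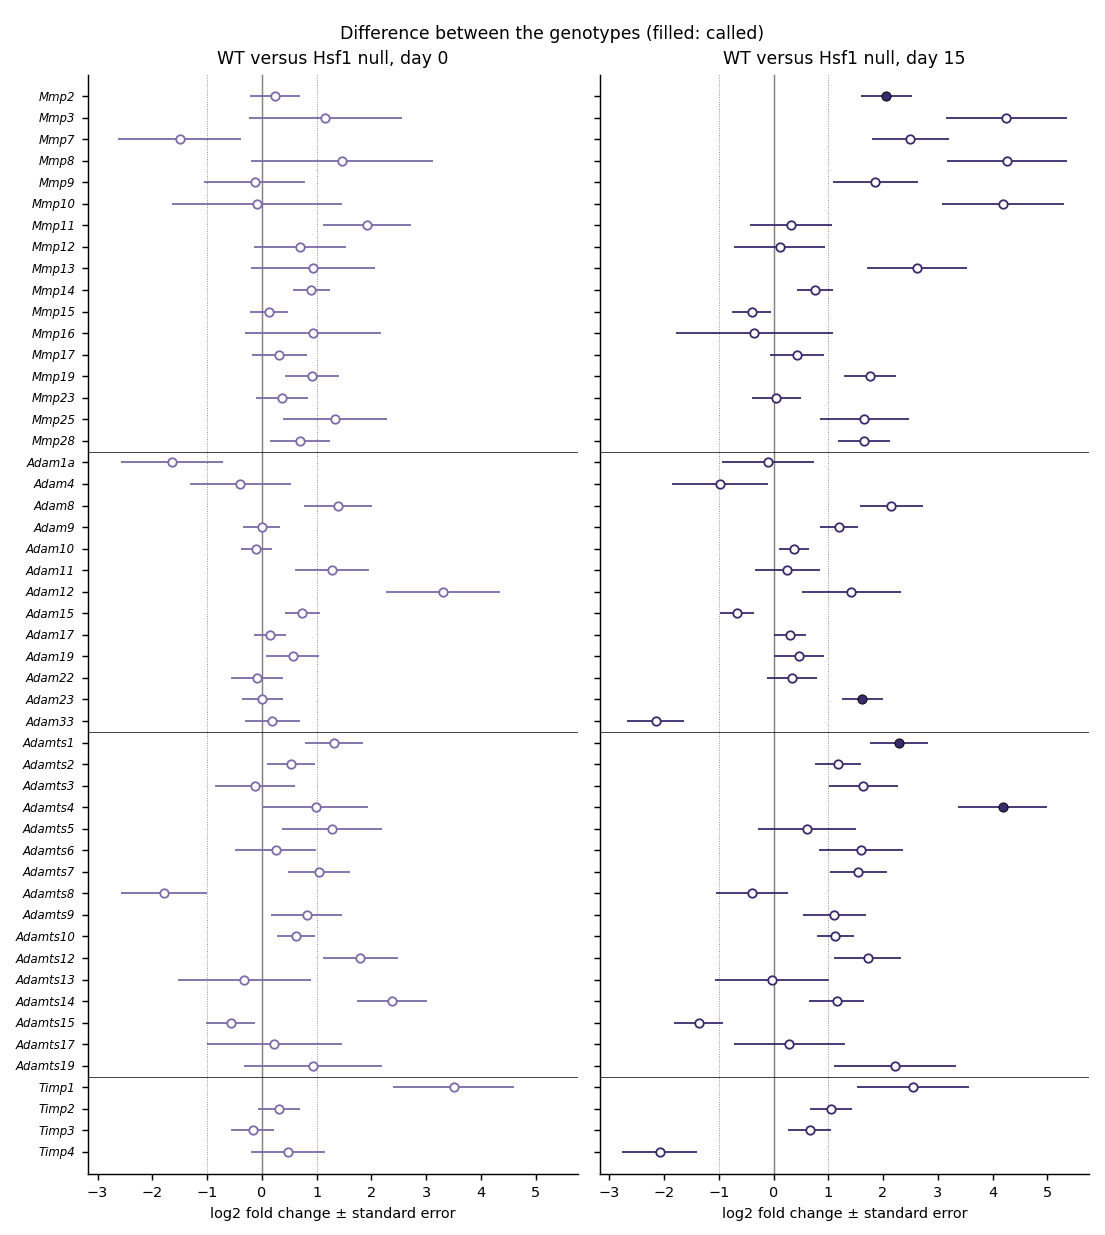
Log2 difference between WT and *Hsf1* null mice (horizontal axis, positive where WT is higher, bars give 1 SE, dotted lines mark -1 and 1) at day 0 (left) and day 15 (right) for the 50 tested members, filled where called. No member is filled at day 0, and *Mmp2*, *Adam23*, *Adamts1* and *Adamts4* are filled at day 15.

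*Adamts4* differed by 4.18 (SE 0.82, adjusted p = 0.0315) and *Mmp2* by 2.06 (SE 0.46, adjusted p = 0.0446), with the levels given above. Over the alternative fits, those without 1 mouse included, these differences ran from 3.56 to 5.19 and from 1.49 to 3.01. Those of *Adamts1* and *Adam23* ran from 1.8 to 3.07 and from 1.38 to 1.91. *Adamts1* (chromosome 16, 85793827 to 85803113), another proteoglycanase, was at 24.1 and 11.1 CPM at WT day 0, 5.91 and 8.98 at *Hsf1* null day 0, 19.4 and 30.3 at WT day 15, and 2.95 and 7.09 at *Hsf1* null day 15. Each of the 4 WT mice was above each of the 4 null mice. The difference at day 15 was 2.29 (SE 0.53, adjusted p = 0.0493), and that at day 0 was 1.32 (SE 0.53, adjusted p = 0.775).

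*Adam23* (chromosome 1, 63445891 to 63596276) belongs to the ADAMs without protease activity, which act in cell adhesion and are known from neurons. It was at 24.7 and 16.3 CPM at WT day 0, 16.7 and 25.2 at *Hsf1* null day 0, 37.1 and 26.9 at WT day 15, and 8.53 and 12.2 at *Hsf1* null day 15. WT mice were higher by 1.62 at day 15 (SE 0.37, adjusted p = 0.0460). The 6 enteric neuron and glia markers summed to 19.7 and 16.7 CPM at WT day 15 and 20.9 and 16.9 at *Hsf1* null day 15. The part of these cells in the *Adam23* values was not tested. Its 2 non-catalytic relatives gave 0.25 (*Adam11*, SE 0.59) and 0.34 (*Adam22*, SE 0.46) on the same scale, neither called.

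With edgeR no MMP other than *Mmp2* was called at day 15. The 8 largest differences among them were 4.26 for *Mmp8* (SE 1.10, adjusted p = 0.0632), 4.25 for *Mmp3* (SE 1.11, adjusted p = 0.0646), 4.19 for *Mmp10* (SE 1.11, adjusted p = 0.0672), 2.50 for *Mmp7* (SE 0.71, adjusted p = 0.0771), 2.62 for *Mmp13* (SE 0.92, adjusted p = 0.131), 1.86 for *Mmp9* (SE 0.77, adjusted p = 0.182), 1.76 for *Mmp19* (SE 0.48, adjusted p = 0.0715) and 1.66 for *Mmp25* (SE 0.82, adjusted p = 0.255), followed by 1.65 for *Mmp28* (SE 0.48, adjusted p = 0.0858). The estimate was below 0 for 10 members, and both WT mice lay below both null mice for 3 of these, *Adam33* (2.70 and 2.11 against 11.8 and 9.76 CPM, -2.15, SE 0.52, adjusted p = 0.0554), *Timp4* (-2.08, SE 0.69, adjusted p = 0.116) and *Adamts15* (18.6 and 9.61 against 47.3 and 25.9 CPM, -1.37, SE 0.44, adjusted p = 0.108). Without single mice the count of calls at day 15 was 0 (without either *Hsf1* null day 0 mouse, replicate 2 of WT day 15 or replicate 1 of *Hsf1* null day 15) and 7 without replicate 2 of *Hsf1* null day 15. Without replicate 2 of WT day 15 the differences were 0.15 for *Mmp13*, 1.25 for *Mmp3* and 1.58 for *Mmp10*, and without replicate 1 of WT day 15 all 3 were called (3.48, 5.15 and 5.07). *Mmp9* was called without replicate 2 of *Hsf1* null day 15 (4.04). DESeq2 called 12 members, 9 higher (with *Mmp8*, *Mmp19* and *Mmp28*) and 3 lower in WT, and a fit of only these 2 groups called none.

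Among the other ADAMTS genes, *Adamts2* and *Adamts3* are procollagen proteinases like *Adamts14*. *Adamts2* was at 24.6 and 24.2 CPM at WT day 0, 15.8 and 18.3 at *Hsf1* null day 0, 58.9 and 46.9 at WT day 15, and 11.9 and 34.6 at *Hsf1* null day 15. *Adamts3* was at 1.18 and 1.19, 1.40 and 1.08, 4.96 and 5.18, and 0.776 and 2.41 CPM in the same order of groups. For both, the WT day 15 mice were the highest of all 8, with WT log2 differences of 1.11 (SE 0.43, adjusted p = 0.127) and 2.09 (SE 0.68, adjusted p = 0.0842), neither called in the fit of all mice. *Adamts2* was called higher in the fit of only the 2 WT groups. *Adamts12*, a protease of stromal cells, was higher in each WT mouse (3.23, 3.18, 4.96 and 4.44 CPM) than in each null mouse (0.657, 1.44, 0.931 and 1.87 CPM), and was not called on either day (adjusted p = 0.775 and 0.133). *Adamts9* was at 7.84 and 3.57 CPM at WT day 0, 2.63 and 4.67 at *Hsf1* null day 0, 16.0 and 23.9 at WT day 15, and 4.34 and 14.0 at *Hsf1* null day 15, with 1.72 in WT (SE 0.60, adjusted p = 0.102). DESeq2 called this rise.

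The main cell surface sheddases were not called in any comparison. *Adam10*, the sheddase of Notch and E-cadherin, was at 105 and 116 CPM at WT day 0, 96.8 and 141 at *Hsf1* null day 0, 92.1 and 94.7 at WT day 15, and 55.7 and 89.2 at *Hsf1* null day 15. *Adam17*, which releases TNF and EGF receptor ligands, was at 25.5 and 21.0, 20.8 and 21.6, 34.4 and 41.7, and 24.4 and 37.2 CPM. Their WT differences were -0.24 (SE 0.28) and 0.70 (SE 0.30, adjusted p = 0.163). *Adam19*, a sheddase of neuregulins, ranged from 24.2 to 78.9 CPM and overlapped between WT and null mice on both days. *Mmp15*, a membrane MMP of epithelial cells, was at 139 and 194 CPM at WT day 0, 186 and 116 at *Hsf1* null day 0, 196 and 202 at WT day 15, and 341 and 181 at *Hsf1* null day 15, with log2 differences between -0.40 and 0.78 in the 4 group comparisons.

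No TIMP was called by edgeR in any comparison, whereas DESeq2 called *Timp4* lower at WT day 15 than in either other group compared with it and *Timp3* lower at day 15 in null mice. *Timp2*, which also takes part in activation of the MMP2 precursor by MMP14, was at 355 and 181 CPM at WT day 0, 208 and 225 at *Hsf1* null day 0, 384 and 218 at WT day 15, and 116 and 174 at *Hsf1* null day 15, with 1.05 between the genotypes at day 15 (SE 0.38, adjusted p = 0.140). *Timp3*, the matrix-bound TIMP that also inhibits ADAM17 and the aggrecanases, was at 217 and 134, 156 and 243, 107 and 156, and 55.2 and 111 CPM in the same order of groups. Its day 15 values in null mice were below both day 0 values (-1.26, SE 0.40, adjusted p = 0.0616). *Timp1* differed by 0.45 in WT mice (SE 0.95, adjusted p = 0.791), but by 3.98 (adjusted p = 0.0441) without replicate 1 of WT day 0, and *Adam8* and *Mmp14* were then called too (3.0, adjusted p = 0.0476, and 1.75, adjusted p = 0.0287). *Timp3* shares 1733 exon bases with *Syn3* on the opposite strand. Among called members, *Adam15* shares 1263, *Mmp28* 466, *Adamts4* 171 and *Mmp7* 123 exon bases with genes on the opposite strand. The setting of the counting for strand is not given in the sources used here, so reads of those genes could be included.

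The levels of the members were also added up by role, per kilobase of exon. The 11 secreted MMPs summed to 45.7 and 25.8 CPM per exon kilobase at WT day 0, 26.7 and 27.4 at *Hsf1* null day 0, 179 and 352 at WT day 15, and 21.6 and 62.9 at *Hsf1* null day 15. Without *Mmp2* these sums were 17.4 and 5.81, 7.17 and 5.57, 43.2 and 275, and 8.35 and 25.2. The 7 membrane-bound MMPs summed to 53.7 and 48.8, 47.0 and 34.6, 75.2 and 75.8, and 85.2 and 64.3, so that the day 15 mice of both genotypes lay above the day 0 mice. The TIMPs summed to 305 and 73.9, 85.5 and 95.3, 175 and 282, and 53.1 and 93.1. The ratio of the TIMP sum to the secreted MMP sum was 6.66 and 2.86 at WT day 0, 3.20 and 3.47 at *Hsf1* null day 0, 0.982 and 0.801 at WT day 15, and 2.46 and 1.48 at *Hsf1* null day 15. The WT day 15 mice had the lowest ratios of the 8, a description of RNA levels over chosen sums that carries no test.

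**Figure D4:**
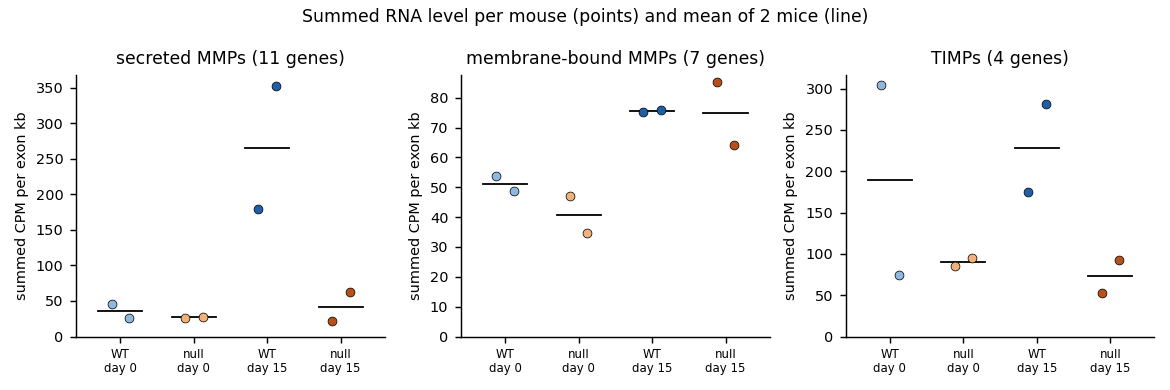
Summed CPM per exon kilobase (vertical axes, linear, from 0) of secreted MMPs, membrane-bound MMPs and TIMPs in each mouse (points) with the mean of 2 mice (lines). Secreted MMPs summed to 179 and 352 at WT day 15 and to at most 62.9 in the other 6 mice, whereas the TIMP sum of 1 WT day 0 mouse (305) was above those of both WT day 15 mice.

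Markers of the cell types that can express these enzymes were summed in each mouse. In bulk tissue, a change in the number of cells of a type and a change in RNA per cell cannot be told apart. The summed level of the neutrophil list (8 of 11 genes in the count table; *Ly6g*, *Camp* and *Elane* are not in it) was 4.37 to 11.6 CPM at WT day 0, 3.95 to 4.52 at *Hsf1* null day 0, 134 and 519 at WT day 15, and 6.98 and 23.3 at *Hsf1* null day 15. Its order among the day 15 mice was the same as that of *Mmp3*, *Mmp8*, *Mmp9* and *Mmp10*. It was not that of *Mmp13*, which was higher in replicate 2 of *Hsf1* null day 15 than in replicate 1 of WT day 15. *Timp1*, *Adam9*, *Adam10*, *Adamts1* and other members had the same order as the list too, so it was not particular to the MMPs named. The 10 macrophage and monocyte markers summed to 1107 and 474 CPM at WT day 0, 495 and 611 at *Hsf1* null day 0, 1444 and 2266 at WT day 15, and 359.5 and 853 at *Hsf1* null day 15, the same order of the day 15 mice as the neutrophil list.

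The fibroblast list was at 2689 and 1003 CPM at WT day 0, 866 and 1275 at *Hsf1* null day 0, 2533 and 2515 at WT day 15, and 492 and 1536 at *Hsf1* null day 15. One WT day 0 mouse was above both WT day 15 mice for this list, and none of its 10 genes was called in WT mice. *Mmp2* and *Adamts2* were higher in both WT day 15 mice than in any other. At day 15 both WT mice were above both null mice for the list and for these genes. The smooth muscle list was 2258 and 1198 CPM at WT day 15 against 4794 and 7475 at WT day 0, with 6 of 8 genes called lower, beside the lower WT values of *Adam33* and *Timp4*. In null mice the smooth muscle list was at 5155 and 5281 CPM at day 0 and 3608 and 3655 at day 15. *Adam33* (10.8 and 3.95, then 11.8 and 9.76 CPM) and *Timp4* (17.7 and 7.19, then 18.5 and 14.0 CPM) overlapped between the days there. Their values in replicate 2 of *Hsf1* null day 0 rest on 11 and 20 counts. Goblet cell markers were also lower in WT day 15 mice (6968 and 9139 CPM) than in the other 6 (at least 18413 CPM), the colon epithelium list was not (14144 and 16011 CPM), and B and plasma cell markers at day 15 were 3053 and 3200 CPM in WT against 157 and 357 in null mice. Endothelial markers were at 359.5 and 283 CPM at WT day 15 and at most 171 in the other 6 mice, and T cell markers at 75.2 and 119.7 and at most 58.8. The part of these cell types in the members' values was not tested.

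**Figure D5:**
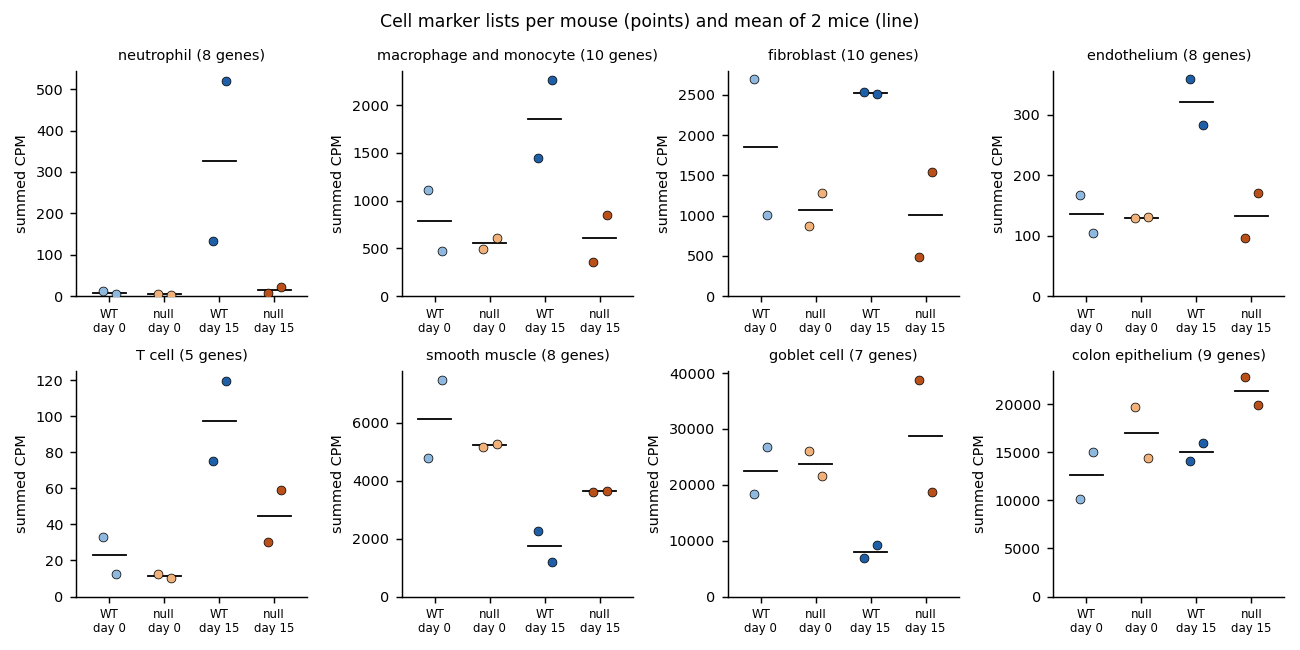
Summed CPM (vertical axes, linear, from 0) of the markers of 8 cell types in each mouse (points) with the mean of 2 mice (lines). The neutrophil sum reached 134 and 519 CPM in the WT day 15 mice and at most 23.3 in the others, the macrophage sum was highest in the same 2 mice, and the smooth muscle and goblet cell sums were lowest there.

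Other genes that act on these proteases were counted from 3 fixed lists. Of 20 genes for activation and inhibition, 3 rose in WT mice and 1 in null mice, where 3.47% and 5.30% of all genes were called higher. *Lcn2*, whose product binds and protects MMP9, was at 2.35 and 3.57 CPM at WT day 0 and 78.6 and 347 at WT day 15 (6.27, SE 0.75, adjusted p = 0.00591), and was 5.06 higher in WT than in null mice at day 15 (SE 0.67, adjusted p = 0.0137). *Pcsk5*, a proprotein convertase, rose by 2.15 in WT mice (SE 0.50, adjusted p = 0.0323). *Tspan14*, a partner of ADAM10, rose in both genotypes, from 44.9 and 46.8 to 91.9 and 98.9 CPM in WT and from 32.8 and 30.2 to 89.5 and 104 CPM in null mice.

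Of the 10 plasminogen activation genes, 6 were tested and 2 rose in WT mice (3.47% of all genes), *Plat* (tissue plasminogen activator, 2.79, SE 0.59, adjusted p = 0.0245) and its inhibitor *Serpine2* (1.87, SE 0.41, adjusted p = 0.0268). *Plat* was also higher in WT than in null mice at day 15 (2.62, SE 0.58, adjusted p = 0.0442). Of the 15 related metalloproteases and ADAMTS-like genes, 13 were tested. *Adamtsl2*, an ADAMTS-like protein without protease activity, rose in WT mice (0.588 and 0 against 28.6 and 3.70 CPM, 5.17, SE 1.13, adjusted p = 0.0268), and *Mep1a*, an epithelial meprin, fell by 3.11 on the log2 scale (SE 0.49, adjusted p = 0.0103), with 20.8 and 17.5 CPM at WT day 15 against 151 and 181 at WT day 0. At day 15 *Mep1a* was also lower in WT than in null mice (182 and 52.3 CPM, -2.61, SE 0.48, adjusted p = 0.0271).

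Members that were not tested were *Adam3*, *Adam5*, *Adam28*, *Adamts16*, *Adamts20* and *Mmp24*, none above 1.08 CPM in any mouse. *Adam28* was at 0 in all but 1 mouse of each day 15 group (0.783 and 0.401 CPM). The other tested members (*Mmp11*, *Mmp16*, *Mmp17*, *Mmp23*, *Mmp25*, *Adam1a*, *Adam4*, *Adamts6*, *Adamts7*, *Adamts8*, *Adamts10*, *Adamts13*, *Adamts17* and *Adamts19*), and *Mmp19*, *Adam11* and *Adam22*, were not called by edgeR in any comparison. The highest of these in any mouse were *Mmp23* (6.75 to 28.9 CPM), *Adamts10* (8.69 to 23.1), *Mmp19* (3.88 to 22.2), *Mmp11* (1.44 to 17.1) and *Adamts7* (1.80 to 16.5). *Mmp17* (3.26 to 9.13), *Adam11* (1.80 to 8.70), *Adam22* (4.01 to 6.70), *Mmp25* (0.359 to 6.44), *Adamts8* (0.882 to 5.08) and *Adamts6* (0.310 to 4.31) were lower, and the other 6 stayed at or under 3.95 CPM. *Adam1a* and *Adam4* are uncertain, since 77.8% and 17.4% of their 50-base words are also in transcripts of other genes.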

How the data were processed

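PolyA RNA of the distal colon of 8 mice was made into libraries with a SENSE mRNA-Seq kit and sequenced by the authors. Reads were aligned by the authors with STAR 2.4.2a to mm10, and the deposited table gives raw counts per gene symbol for genes whose highest count was at least 6. The counting program, its annotation and its strand setting are not given in the sources used here. A second deposited table, of counts divided by size factors, was not used.

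Counts were fitted in R 4.3.3 with edgeR 4.0.16 (TMM, quasi-likelihood test, 1 model of the 4 groups of 2 mice, 5.97 prior degrees of freedom) over all 14371 genes whose mean normalized count exceeded 5, of which only members and listed genes are printed. Benjamini-Hochberg adjustment was made over these genes in each of 5 comparisons. A call needed adjusted p under 0.05 with a log2 fold change past 1 in either direction. CPM use TMM-adjusted totals, and CPM per exon kilobase use merged GENCODE exons (GRCm38). Ratios from 3 or fewer counts carry exact counting intervals, which cover counting error only. With 2 mice per group, no outlier test was possible. DESeq2 1.42.0, other filters, thinning, replicate blocks and fits without each mouse were the alternatives.

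Members, gene lists and tests were chosen with earlier results of these data known. Values in every sample were given for most members with well-known roles and for every called member, and the others by range or by their differences. Same-numbered mice were different animals, so the numbers were not used to pair samples.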

Additional observations from a re-analysis of the deposited data

Results flagged for a closer look

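*Adam23* was the only tested member for which both WT mice at day 15 lay above both at day 0 while both *Hsf1* null mice at day 15 lay below both at day 0. The change in WT minus the change in null mice was 1.61 on the log2 scale (SE 0.52), and the edgeR quasi-likelihood test of this difference gave an unadjusted p of 0.0110 and an adjusted p of 0.453, so the difference between the genotypes was not called. The 2 changes were 0.62 (SE 0.36) and -0.99 (SE 0.37).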

How the results depend on the processing

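The 16 calls of members kept their direction in all 271 alternative fits. The count for WT against *Hsf1* null mice at day 0 was 0 under every alternative run, as was that for the difference between the genotypes in the change, which cannot be fitted with only 2 groups. The 9 calls in WT mice, all higher, became 13 with DESeq2 and with the crossed block, of which 2 were lower, and 6 with the replicate block, of which 1 was lower. They ranged from 6 to 13 over the fits with all mice and from 0 to 10 when 1 mouse was left out. The 3 calls in null mice became 5 with DESeq2 and ranged from 0 to 3 when 1 mouse was left out. The 4 calls between the genotypes at day 15 became 12 with DESeq2 and 0 with only the groups compared, and ranged from 0 to 7 when 1 mouse was left out. With a replicate block the counts were 6, 3 and 1 for WT mice, null mice and day 15. Same-numbered samples did not deviate together (correlations from -0.30 to 0.17 over pairs of groups), so the numbers did not pair the mice. A crossed replicate block, chosen after seeing the data, gave 13, 5 and 13. The causes of these shifts were not tested. Of 2407 alternative fits of results that were not called, 53 became calls and 92 changed sign. In the smallest libraries (2553348 and 2675976 counts) 1 count is worth 0.397 and 0.359 CPM, which limits *Mmp7*, *Mmp8* and *Adamts4* at day 0.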
